A study of Mus musculus with 18 samples.

Results

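The genes described here are 40 genes of DNA replication, chosen by function as the factors that license origins, unwind DNA, prime and synthesise it, load the sliding clamp, supply deoxynucleotides and place histones on the new DNA. The rule names them by function and uses no measured value, though it was written with earlier results of these data known, and all 40 were matched by symbol among the 37620 gene IDs of the count tables. They were followed through 18 polyadenylated RNA libraries from mice of a C57B6/129 hybrid strain, in 9 groups of 2 libraries. The genotypes were wildtype (WT), H3K9M and H3K36M, in which histone H3 carries methionine in place of lysine 9 or lysine 36 and which the series describes as inducible mutations. All mice, WT included, are covered by 1 treatment text, in which animals of 6 to 8 weeks of age received 2 mg/ml doxycycline in the drinking water. The tissues were Lin- cKit+ bone marrow cells (blood stem and progenitor cells, BSPC) from 6 mice, and dissociated cells of the intestine and of the testes from 6 other mice that each gave both tissues. Mice are named by genotype and label number (WT.1476). The promoter that drives the mutant histone, the time under doxycycline and the source of the WT allele are not given in the sources used here.

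DNA replication begins when the origin recognition complex, with Cdc6 and Cdt1, loads the ring of Mcm2 to Mcm7 onto origins in G1. In S phase Cdc45 and the GINS complex turn that ring into an active helicase, polymerase alpha and primase lay primers, polymerases delta and epsilon extend them on the Pcna clamp that replication factor C loads, and ribonucleotide reductase supplies the deoxynucleotides. Many of these genes are known targets of E2F factors, which drive their transcription at the G1/S boundary, whereas genes of mitosis are known for CHR elements that act later in the cycle. In the tissues sampled, cycling cells are known among marrow progenitors, in the intestinal crypt and among spermatogonia, and meiotic spermatocytes also use some replication and repair factors.

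The sequences upstream of 7 members are shown. The results in the intestine turn on the first 5, the members that were called higher in H3K36M there. The last 2, Mcm6 and Rrm1, belong to the same helicase ring and the same enzyme and were not called. They do not stand for all uncalled partners. The sequences are the 200 bases before the RefSeq transcription start in GRCm38.p6 (the counts were made on mm9), written 5′ to 3′ on the gene's strand in lower case. Capitals mark letters of the E2F motifs searched (TTGGCGC, and with the middle letters changed TTCGCGC, and also TTCCCGC, on both strands) and of the NF-Y motif (CCAAT, both strands). Rrm2 lies at chr12:24708054-24708253 (plus strand), Mcm2 at chr6:88898781-88898980 (minus strand), Mcm10 at chr2:5012792-5012991 (minus strand), Rpa2 at chr4:132768160-132768359 (plus strand), Cdt1 at chr8:122567815-122568014 (plus strand), Mcm6 at chr1:128359706-128359905 (minus strand) and Rrm1 at chr7:102441495-102441694 (plus strand), the windows being upstream of the annotated transcripts.
Rrm2: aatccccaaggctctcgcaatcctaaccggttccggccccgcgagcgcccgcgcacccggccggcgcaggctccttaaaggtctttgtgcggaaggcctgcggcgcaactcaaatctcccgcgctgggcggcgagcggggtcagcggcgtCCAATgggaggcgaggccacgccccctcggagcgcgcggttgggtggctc
Mcm2: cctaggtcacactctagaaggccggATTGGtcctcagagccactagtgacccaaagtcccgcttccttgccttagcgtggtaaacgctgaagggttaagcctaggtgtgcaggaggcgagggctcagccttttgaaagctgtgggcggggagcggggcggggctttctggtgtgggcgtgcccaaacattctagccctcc
Mcm10: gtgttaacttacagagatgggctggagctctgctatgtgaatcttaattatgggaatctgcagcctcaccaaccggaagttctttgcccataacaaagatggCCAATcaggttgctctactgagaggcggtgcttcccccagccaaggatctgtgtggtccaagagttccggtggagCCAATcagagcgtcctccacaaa
Rpa2: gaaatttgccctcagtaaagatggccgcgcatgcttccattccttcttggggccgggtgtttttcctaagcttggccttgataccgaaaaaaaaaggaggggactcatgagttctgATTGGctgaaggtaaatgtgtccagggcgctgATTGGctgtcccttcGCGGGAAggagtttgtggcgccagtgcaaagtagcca
Cdt1: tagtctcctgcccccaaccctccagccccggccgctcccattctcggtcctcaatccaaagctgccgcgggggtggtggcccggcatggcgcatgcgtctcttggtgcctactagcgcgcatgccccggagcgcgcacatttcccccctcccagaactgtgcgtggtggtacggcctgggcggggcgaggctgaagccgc
Mcm6: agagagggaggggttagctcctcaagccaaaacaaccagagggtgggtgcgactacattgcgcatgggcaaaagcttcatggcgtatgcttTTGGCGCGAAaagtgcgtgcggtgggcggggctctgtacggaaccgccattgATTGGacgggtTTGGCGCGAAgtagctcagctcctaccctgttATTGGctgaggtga
Rrm1: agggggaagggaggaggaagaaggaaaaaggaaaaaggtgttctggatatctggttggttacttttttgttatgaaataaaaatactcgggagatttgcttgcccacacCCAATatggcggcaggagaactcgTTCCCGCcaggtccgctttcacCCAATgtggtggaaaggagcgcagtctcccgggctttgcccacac

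Over the RefSeq promoter window of 250 bases before to 50 after a start, 33 of the 40 members had an entry, and 21 of them (63.64%) held at least 1 E2F match against 9.2% of 27025 genes. At least 2 matches, which may overlap each other, stood in 10 of the 33 (30.3%) against 1.01% of all genes. NF-Y letters were present in 63.64% of the members and 41.06% of all genes, and the Sp1 letters GGGCGG (both strands) in 72.73% and 38.2%. The CHR letters TTTGAA were present in 12.12% of the members, in 20.23% of all genes and in 76.19% of 21 mitosis genes, of which 19.05% held an E2F match. Of the 5 genes called higher in the intestine, Rrm2, Mcm2 and Mcm10 had no E2F letters in this window, Rpa2 had 1 match, and both matches of Cdt1 lay outside the 200 bases printed. Of the ring subunits not called there, Mcm6 had 5 matches in this window, the most of any member. Mcm3, Mcm5 and Mcm7 had 3 each, and Mcm4 had no entry. In the 200 bases before the start, Mcm6 had 4, Mcm5 had 3, Mcm7 had 1 and Mcm3 had 0. Such matches describe letters and not bound sites.

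Gene counts per library ran from 13396303 to 21417915, of which the members took 131369 to 182100 in BSPC, 5188 to 12128 in intestine and 15852 to 36933 in testes. The lowest count of a member in any library was 1, in intestine, so the rarest members are measured with little depth there. Tissue markers followed the labels: 10 enterocyte genes summed to at least 48466 CPM in every intestine library and to at most 56.4 elsewhere, 10 spermatid genes to at least 15613 in testes, and 12 blood stem cell genes to 769.9 to 1493 in BSPC. The intestine library of WT.1476 held a spermatid sum of 309.7 CPM, against 13.7 to 41.7 in the other 5 intestine libraries. Every BSPC library was high in Xist (2108 to 3435 CPM) with the Y-linked Ddx3y at 0, while the libraries of the other tissues held 16.4 to 66.3 CPM of Ddx3y, so sex and BSPC cannot be told apart. Within a tissue, values are CPM on that tissue's TMM scaling with log2 fold changes ± SE, and a gene is said to rise or fall only where edgeR's quasi-likelihood test passed an adjusted p of 0.05 over all genes. Replicates are different mice, 2 in each group. In bulk RNA, fewer cells of a type and less RNA per cell cannot be told apart.

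In WT mice the replication genes were highest in BSPC. On the scaling over all libraries, the 40 members summed to 6123 and 6335 CPM in BSPC, to 762.8 (WT.1476) and 464.2 (WT.1477) in intestine and to 1524 and 1528 in testes. All 40 were higher in BSPC than in intestine by edgeR's test, where 64.1% of all 21257 genes tested were called, 29.4% higher in BSPC and 34.8% lower, with a median log2 difference of 3.53 against -0.03 over all genes. Against testes, 35 of 40 were higher in BSPC and 0 lower (33.6% and 48.6% of all genes, 82.1% in all), with a median of 2.1 against -0.67 over all genes. The 5 without a call were Rfc1, Rfc2, Rfc4, Rpa1 and Chaf1a, with log2 differences from -0.38 to 0.57. With DESeq2's size factors in edgeR the same contrast gave 30 higher and 2 lower. Between intestine and testes, 6 members were higher and 20 lower in intestine (33.2% and 48.2% of all genes, 81.4% in all).

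Per kilobase of exon, the order of the members differed between the tissues. In BSPC, Mcm6 stood first at 124 ± 2.57 CPM per kb (SD, n = 2), followed by the clamp Pcna at 119 ± 1.71 and by Mcm5 at 110 ± 1.28. Mcm3, Mcm7 and Mcm4 came next at 99.2 ± 1.96, 84.8 ± 2.23 and 80.8 ± 0.953, so 5 subunits of the helicase ring and the clamp held the first 6 places, while Mcm2 stood at 49.6 ± 1.52. Neighbours further down were often within their SD, as Rpa2 at 35.0 ± 1.97 and the polymerase delta subunit Pold1 at 34.9 ± 1.80. Pcna also led the intestine at 32.7 ± 2.48, ahead of the GINS subunit Gins4 at 13.6 ± 1.95 and Mcm6 at 10.5 ± 2.58, the last 2 of which were apart by less than the sum of their SDs. In testes the single-strand binding protein Rpa1 led at 38.0 ± 0.0096, ahead of Pcna at 33.0 ± 0.45 and Mcm7 at 28.8 ± 1.15, and 3 of the first 7 members were clamp loader subunits (Rfc2 27.6 ± 0.295, Rfc1 26.3 ± 0.185, Rfc4 20.3 ± 0.695). Fen1, the flap endonuclease of Okazaki fragments, was last in BSPC (2.20 ± 0.105) and intestine (0.18 ± 0.0981), but 84.2% of its annotated exon bases overlap genes of the opposite strand and strand use in counting was not given, so its level is uncertain.

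**Figure D1:**
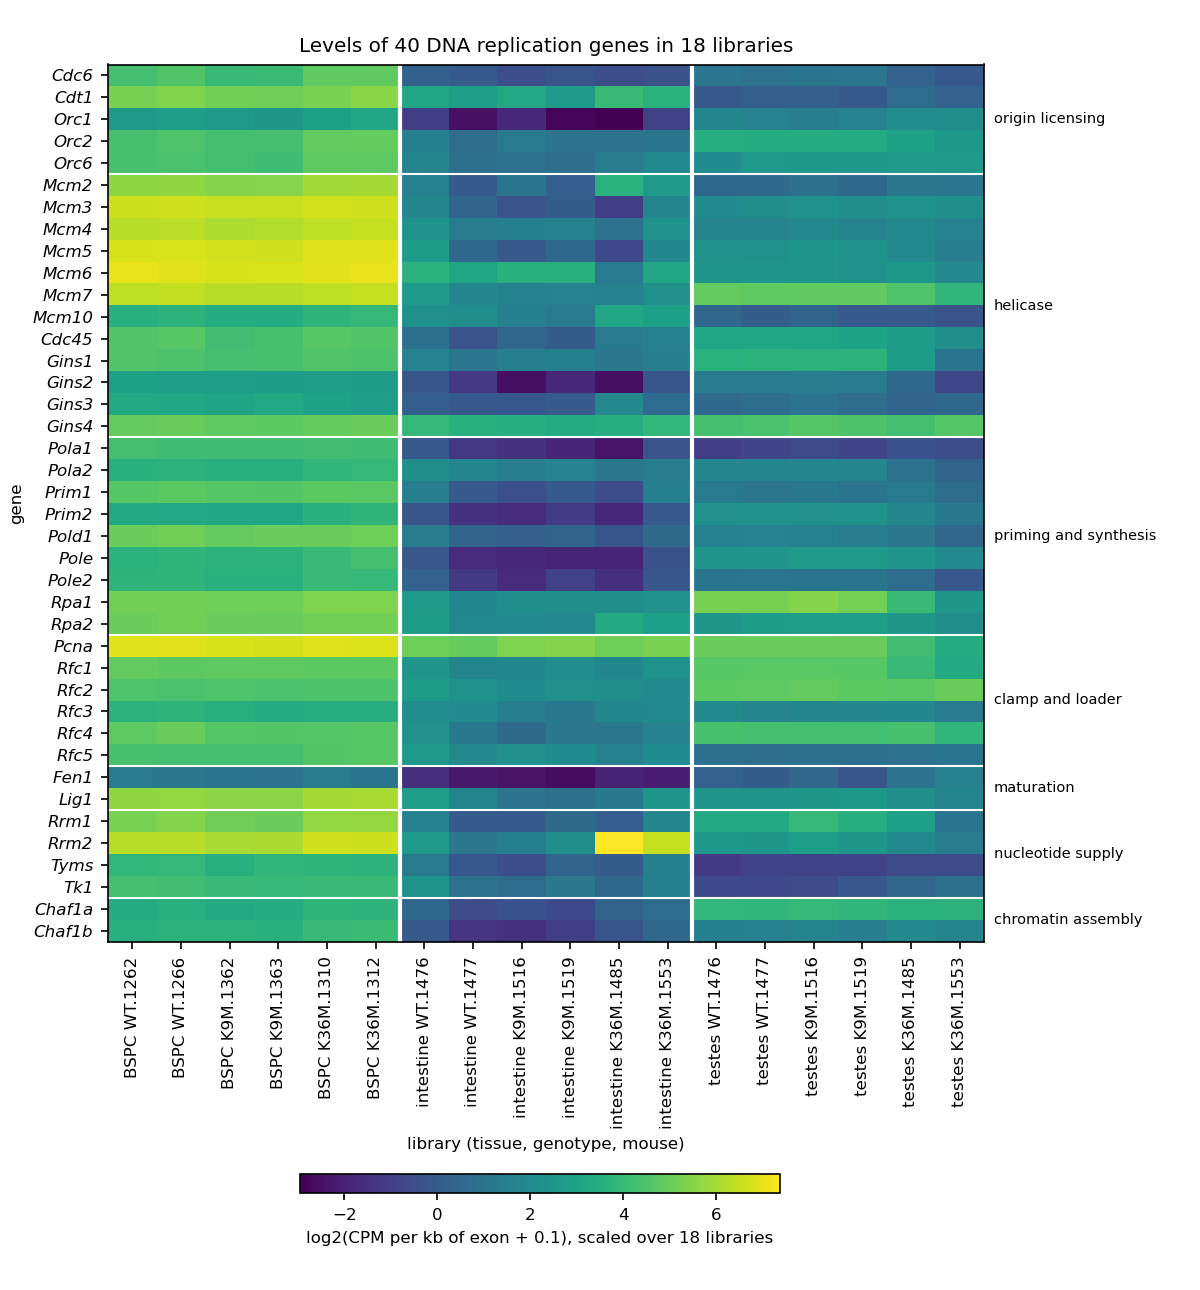
Level of each of the 40 genes (rows, grouped by role) in each of the 18 libraries (columns), as log2 of CPM per kb of exon plus 0.1 on the scaling over all libraries. BSPC libraries are high throughout, intestine libraries low for most rows, and the 2 intestine H3K36M libraries stand out for Rrm2, in the nucleotide supply rows.

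The tissue differences of single members ran over a wide range. Mcm3, which showed the largest difference between BSPC and intestine, had 367 and 377 CPM in BSPC and 12.5 and 4.65 in intestine (log2 5.42 ± 0.62). The next were the catalytic polymerase alpha subunit Pola1 (4.98 ± 0.54), Mcm5 (4.80 ± 0.70) and Mcm2 (4.73 ± 0.47). Against testes the largest differences were those of Pola1 (5.43 ± 0.55), the licensing factor Cdt1 (5.41 ± 0.28), the thymidylate synthase gene Tyms (5.23 ± 0.53) and Mcm2 (5.19 ± 0.48). Cdt1 was also the member most in favour of intestine over testes, at 26.98 and 21.5 CPM in intestine and 2.66 and 3.24 in testes (log2 3.03 ± 0.26), with the thymidine kinase gene Tk1 (2.69 ± 0.44), Tyms (2.02 ± 0.51) and Mcm10 (2.01 ± 0.20) behind it. On the side of testes stood Chaf1a, a subunit of the chromatin assembly factor that places histones on new DNA (12.0 and 5.19 CPM in intestine, 129 and 128 in testes, log2 -3.89 ± 0.27), Orc1 (-3.69 ± 0.57), Pole (-3.36 ± 0.49) and Prim2 (-3.21 ± 0.46). With the mouse as a replicate block, 25 members in place of 26 were called between intestine and testes, and 17088 in place of 17296 of all genes.

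In BSPC of H3K36M mice 14 replication genes rose and 4 fell, by at most 1.38-fold. The called share, 45% of 40, is near the background, since 48% of 14604 genes were called (23.5% higher, 24.6% lower), and the median log2 fold change of the members was 0.04 against -0.02 over all genes. The rises lay in origin licensing (3 of 5), priming and synthesis (4 of 9), nucleotide supply (2 of 4), chromatin assembly (2 of 2), and 1 gene each of the helicase, clamp and maturation groups, and the falls in the clamp loader (2 of 6 in its group), the helicase (1 of 12) and nucleotide supply (1 of 4). Without H3K36M.1312 fewer members and also fewer of all genes were called, and the members' median was 0.04.

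Among licensing genes of BSPC, Orc2, a subunit of the origin recognition complex, had 104 and 117 CPM in WT and 146 and 155 in H3K36M (log2 0.45 ± 0.08, adjusted p = 0.00282). Orc6 went from 67.3 and 69.7 to 88.1 and 89.3 CPM (0.37 ± 0.07), and Cdc6, which helps to load the helicase ring, from 136 and 164 to 195 and 195 (0.38 ± 0.09, adjusted p = 0.0115). In each of these 3 genes both H3K36M mice lay above both WT mice. All 3 were called on these same values, so this is no further evidence of a difference. Cdt1 was at 159 and 175 CPM in WT and 157 and 192 in H3K36M, which overlap. The exons of Orc2 share 29.8% of their bases with a gene on the opposite strand.

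The helicase ring did not move as a unit in BSPC. Mcm2 was at 446 and 466 CPM in WT and 555 and 567 in H3K36M (log2 0.30 ± 0.05), and it was the 1 ring subunit of 6 that was called. The anchor Mcm5 had 574 and 584 CPM in WT and 610 and 606 in H3K36M (0.07 ± 0.05, adjusted p = 0.305), and Mcm3, Mcm4, Mcm6 and Mcm7 had log2 fold changes between -0.01 and 0.05. The helicase activator Cdc45 was at 110 and 120 CPM in WT and 116 and 110 in H3K36M (-0.02 ± 0.08). Gins3, 1 of the 4 GINS subunits, fell from 35.0 and 32.5 to 27.9 and 24.7 CPM (-0.36 ± 0.11, adjusted p = 0.0293), while the other GINS genes were not called.

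Of the synthesis genes, Pole, the catalytic subunit of the leading-strand polymerase epsilon, showed the largest rise in this tissue, from 182 and 203 to 239 and 293 CPM (log2 0.46 ± 0.10, adjusted p = 0.0077). Prim2, the regulatory primase subunit, went from 77.0 and 76.5 to 93.2 and 109 CPM (0.39 ± 0.09), and Pola2 and Rpa1 rose by 0.24 ± 0.07 and 0.17 ± 0.06. Pola1 stayed uncalled, at 222 and 209 CPM in WT and 207 and 207 in H3K36M (-0.06 ± 0.06, adjusted p = 0.495). Thus both H3K36M mice were above both WT mice for Pole, Prim2, Pola2 and Rpa1 and below them for Pola1, which was not called. The other genes were called on these same values, so their separation is no further evidence of a difference.

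The clamp Pcna was at 373 and 382 CPM in WT and 358 and 354 in H3K36M (log2 -0.08 ± 0.06, adjusted p = 0.249). Its loader changed in both directions: Rfc3 fell from 61.2 and 64.7 to 50.9 and 51.6 CPM (-0.30 ± 0.08) and Rfc4 from 56.2 and 66.1 to 49.4 and 52.3 (-0.27 ± 0.09, adjusted p = 0.0475), whereas Rfc5 rose (0.27 ± 0.07). The fall of Rfc4 was called in 3 of 13 alternative settings. Lig1, the ligase that joins Okazaki fragments, rose by 0.29 ± 0.06. Fen1 had no call.

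For nucleotide supply in BSPC, both subunits of ribonucleotide reductase rose, Rrm2 from 280 and 288 to 357 and 349 CPM (log2 0.32 ± 0.06, adjusted p = 0.00304) and Rrm1 from 569 and 642 to 746 and 780 (0.33 ± 0.07). Tk1 fell from 134 and 128 to 111 and 111 CPM (-0.24 ± 0.07), and Tyms was at 119 and 123 CPM in WT and 108 and 104 in H3K36M (-0.19 ± 0.09, adjusted p = 0.118). Both subunits of the chromatin assembly factor rose, Chaf1b from 73.3 and 78.1 to 96.3 and 103 CPM (0.40 ± 0.08) and Chaf1a by 0.25 ± 0.08. About 52.5% of the exon bases of Chaf1a overlap a gene of the opposite strand, whereas Chaf1b has no such overlap.

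In the same H3K36M BSPC, of 24 mitosis genes 21 rose and 0 fell (median log2 fold change 0.46), led by Ccnb1 (112 to 217 CPM on average) and Mki67 (1386 to 2194). Of 46 other replication genes 21 rose and 4 fell (median 0.20), with Orc5 from 55.7 to 110 CPM and the kinase activator Dbf4 from 95.1 to 141. Of 25 G1/S regulators 14 rose and 2 fell, with Ccna2 from 218 to 368 CPM and Rb1 from 75.3 to 120. Summed members were at 8079.7 and 8373 CPM in WT and at 8735 and 9088 in H3K36M, and summed mitosis genes at 5673 and 5719 and at 8104 and 8207. Lineage markers moved in the same libraries: 13 of 14 granulocyte-monocyte genes fell, with sums of 15659.7 to 19930.2 CPM in WT and 3944 to 5279 in H3K36M, and 10 of 14 erythroid genes rose, with sums of 1780 to 3009 and 4444 to 4778. Among 12 blood stem cell genes 3 rose and 6 fell, with sums of 1143 to 1161 and 769.9 to 821.6 CPM. No gene of these lists was at 0 in both libraries of a BSPC group. The part of these markers in the replication gene values was not tested.

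H3K9M BSPC gave no call among the 40 members in edgeR (1.01% of all genes were called, 0.589% higher and 0.418% lower). Before adjustment 12 members were lower and 0 higher at p under 0.05. The share of all genes at that unadjusted p is not given here, so the unadjusted counts of this paragraph have no background. Of the 40, 37 had a negative log2 fold change, with a median of -0.12 against -0.00 over all genes. DESeq2, which called 352 of 14604 genes, called 3 members lower (Cdc6, Cdc45 and Rrm2), and limma-voom none. Cdc6 had the smallest p, at 136 and 164 CPM in WT and 112 and 117 in H3K9M (log2 -0.40 ± 0.09, adjusted p = 0.124). Cdc45 stood at 110 and 120 CPM in WT and 86.8 and 95.8 in H3K9M (-0.33 ± 0.08, adjusted p = 0.14). For ribonucleotide reductase the values were 280 and 288 against 243 and 248 CPM for Rrm2 (-0.21 ± 0.06) and 569 and 642 against 520 and 492 for Rrm1 (-0.26 ± 0.07), both at an adjusted p of 0.175. Without WT.1262 more calls were made among the members and over all genes alike. The members' median was then -0.15, against -0.08 without WT.1266. In the same libraries 2 of 12 blood stem cell genes rose, with sums of 1384 and 1493 CPM against 1161 and 1143 in WT. Over 14 erythroid genes the median was -0.68 on the log2 scale with 0 calls, and 8 of 24 mitosis genes had p under 0.05 before adjustment, all lower, with 0 calls. The part of these lists in the members' values was not tested.

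Set directly against H3K36M, H3K9M BSPC had 20 members lower and 1 higher (53.8% of all genes were called, 27.8% higher and 26% lower in H3K9M). The largest differences were those of Cdc6 (112 and 117 against 195 and 195 CPM, log2 -0.77 ± 0.09, adjusted p = 0.000369), Rrm1 (-0.59 ± 0.07), Orc2 (-0.58 ± 0.08) and Orc6 (-0.54 ± 0.07). Gins3 was the member that was higher in H3K9M (0.32 ± 0.11). Without H3K9M.1363 fewer members and also fewer of all genes were called. The members' median log2 difference was then -0.17, against -0.20 with all mice. The mutants were each compared with the same WT mice, so this contrast and those against WT share samples.

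**Figure D2:**
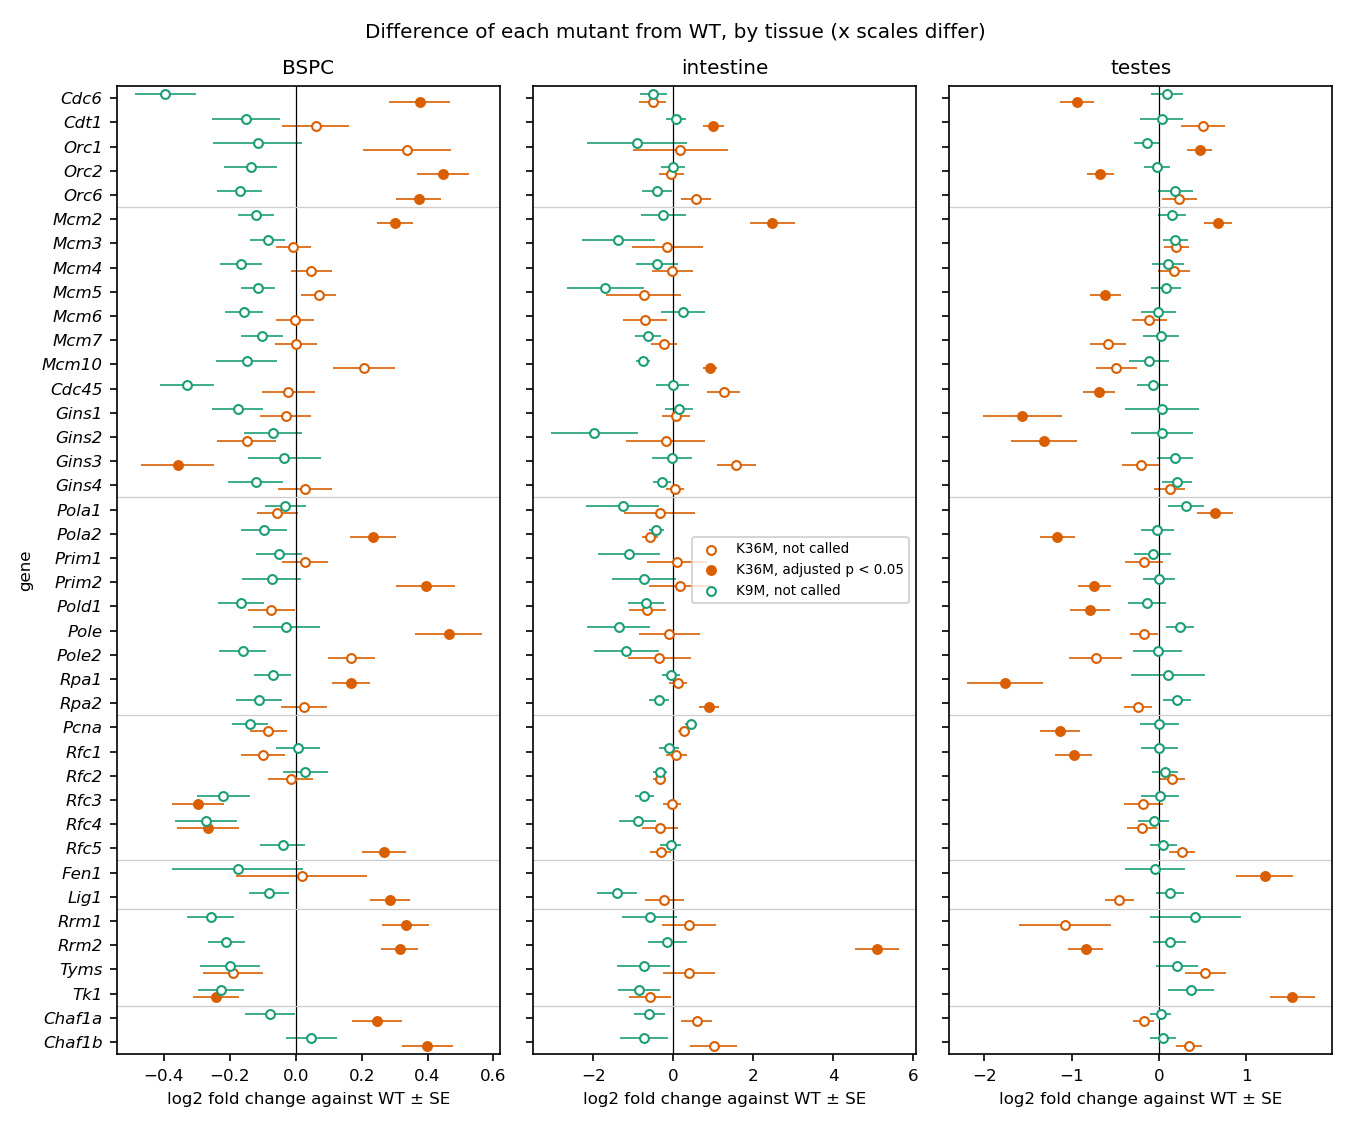
Log2 fold change of each member against WT with its SE, for H3K36M (orange) and H3K9M (green) in BSPC, intestine and testes, with filled symbols where the adjusted p was under 0.05. All filled symbols are H3K36M (18 in BSPC, 5 in intestine, 18 in testes), and the x scales differ, with Rrm2 in intestine at 5.09.

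In the intestine of H3K36M mice 5 members rose and 0 fell, of 39 tested, and the rise of Rrm2, the small subunit of ribonucleotide reductase, was the largest fold change of a member against WT in any tissue. The called share of 12.8% lies below the 23.3% of 14246 genes called (11.7% higher), and the median log2 fold change of the members was 0.05 against -0.02 over all genes. That median depends on single libraries, being 0.39 without WT.1476, -0.31 without WT.1477, 0.48 without H3K36M.1485 and -0.61 without H3K36M.1553. Rrm2 was at 10.9 (WT.1476) and 4.48 (WT.1477) CPM in WT, at 5.39 and 8.74 in H3K9M and at 342 (H3K36M.1485) and 190 (H3K36M.1553) in H3K36M (log2 5.09 ± 0.54 against WT, adjusted p = 0.00316). Mcm2, the next, was at 12.5 and 4.75 CPM in WT, 9.58 and 5.09 in H3K9M and 64.8 and 32.8 in H3K36M (2.48 ± 0.56, adjusted p = 0.0257). Both H3K36M mice lay above all 4 other mice for these genes, which were called on these same values, so this is no further evidence.

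The remaining rises in intestine were smaller. Cdt1 stood at 17.3 and 16.3 CPM in WT and 37.3 and 29.9 in H3K36M (log2 0.998 ± 0.26, adjusted p = 0.037), and Mcm10, a helicase activation factor, from 22.8 and 25.8 to 50.03 and 42.2 (0.93 ± 0.17, adjusted p = 0.0136). Rpa2, the second subunit of the single-strand binding protein, went from 12.0 and 8.88 to 22.3 and 16.7 CPM (0.90 ± 0.25, adjusted p = 0.0456). The call for Rpa2 was kept in 6 of 13 alternative settings, that for Cdt1 in 10 and that for Mcm10 in 11. For all 5 genes the mouse H3K36M.1485 had the higher value of the H3K36M pair.

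Partners of these 5 genes were not called. Rrm1, the large subunit that works with Rrm2, was at 20.4 and 7.26 CPM in WT and at 8.14 (H3K36M.1485) and 28.3 (H3K36M.1553) in H3K36M (log2 0.40 ± 0.67). In H3K36M.1485 the other ring subunits were low: Mcm3 1.045, Mcm4 4.63, Mcm5 1.57, Mcm6 8.14 and Mcm7 9.18 CPM, each below both WT mice, in the library where Mcm2 was at 64.8. H3K36M.1553 held 9.34 CPM of Mcm3 and 13.8 of Mcm4, above both WT mice, and 10.7 of Mcm5, 33.1 of Mcm6 and 15.5 of Mcm7, between the WT mice. Without H3K36M.1553 the members' median log2 fold change was -0.61, against -0.085 over all genes. Without either WT mouse or without H3K36M.1485, fewer members and also fewer of all genes were called. Over 13 alternative settings, these included, the log2 fold change of Rrm2 lay between 4.59 and 5.87.

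Other anchors in intestine had no call. Mcm5 was at 16.6 and 3.93 CPM in WT and 1.57 and 10.7 in H3K36M (log2 -0.74 ± 0.94), and Pola1 at 4.75 and 2.102 against 0.597 and 4.79 (-0.34 ± 0.88). For both genes the genotypes overlap. Cdc45 was at 3.78 and 1.90 CPM in WT and 6.20 and 7.52 in H3K36M (1.26 ± 0.42, adjusted p = 0.0718), Cdc6 at 3.69 and 3.46 against 2.31 and 2.67, and Pcna at 53.0 and 56.2 against 61.0 and 71.7. Tyms and Chaf1b overlapped between the genotypes, at 9.36 and 3.80 against 4.41 and 12.9 CPM and at 2.57 and 1.02 against 2.54 and 4.79. Gins3 was at 1.75 and 1.69 CPM in WT and 7.24 and 3.09 in H3K36M, and DESeq2 called both Cdc45 and Gins3, which edgeR did not.

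**Figure D3:**
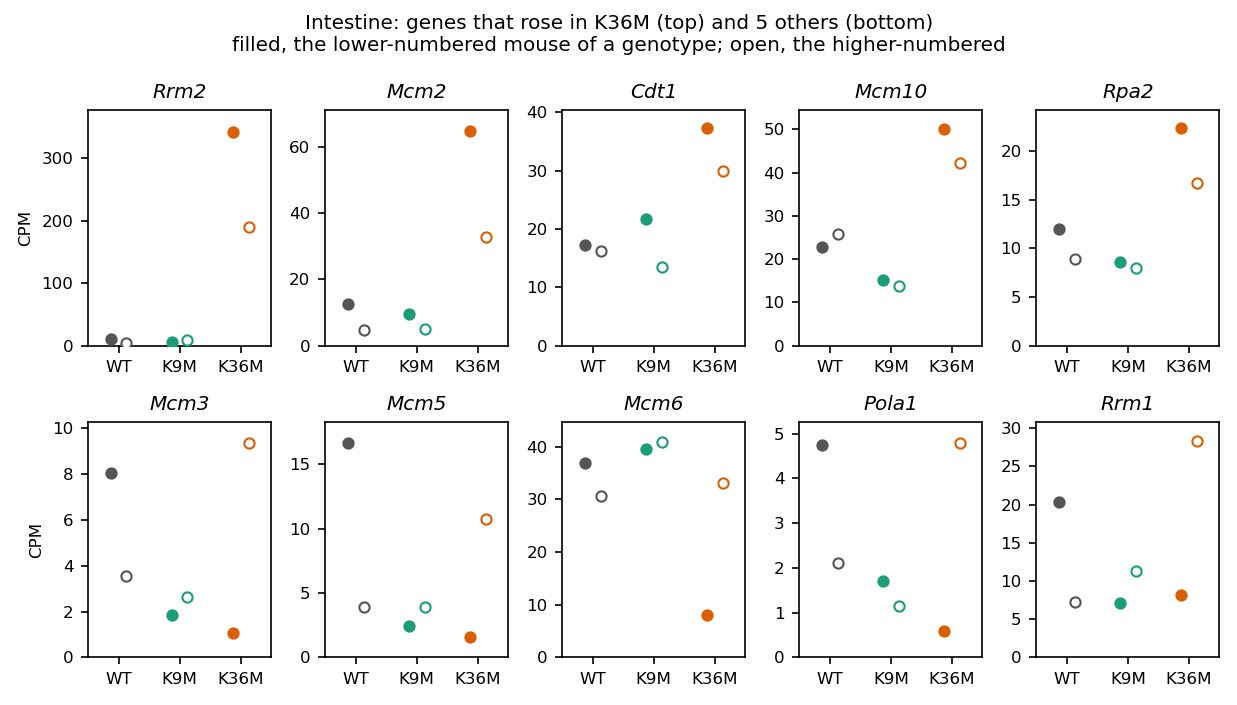
CPM in each intestine library for the 5 genes that rose in H3K36M (top) and for Mcm3, Mcm5, Mcm6, Pola1 and Rrm1 (bottom), with filled points for the lower-numbered mouse of each genotype. The 2 H3K36M points lie above all others in the top row (Rrm2 at 342 and 190). For no gene of the bottom row do both lie on the same side of both WT points.

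Of 24 mitosis genes in intestine, 0 rose and 0 fell in edgeR, before adjustment 1 lower and 0 higher had p under 0.05, and their sums were 397.4 and 147.0 CPM in WT, 86.9 and 126.1 in H3K9M, and 86.9 (H3K36M.1485) and 398.4 (H3K36M.1553) in H3K36M. The library with the most Rrm2 was thus among the lowest in mitosis genes. Summed members were at 489.6 and 351.8 CPM in WT and 774.3 and 735.9 in H3K36M, and without Rrm2 at 478.7 and 347.4 against 432.4 and 545.9. Of 45 other replication genes tested, 2 rose and 3 fell, and Mtbp was among those that rose (3.94 to 10.4 CPM on average). G1/S regulators gave 0 rises and 2 falls of 25, Rb1 (99.8 to 44.3 CPM) and E2f3 (32.6 to 11.7).

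Cell type markers also differed in these intestine libraries. All 8 goblet genes fell, with sums of 10619 and 12691.5 CPM in WT and 982.0 and 1362 in H3K36M, and 6 of 9 tested immune genes fell, with sums of 492.2 to 808.7 and 91.3 to 216.9. Of 10 enterocyte genes 4 fell and 0 rose (sums 55057 to 61280.1 and 48466 to 65112), and of 9 crypt genes 2 rose and 0 fell (sums 76.4 to 176.6 and 77.5 to 142.3). Zbtb16, a transcription factor gene of the spermatogonia list, was at 0 and 0.14 CPM in WT and at 74.0 and 44.4 in H3K36M, while of the 3 genes of that list tested no other was called. The part of these differences in the values of the 5 genes was not tested. No gene of these 4 intestinal lists was at 0 in both libraries of a group.

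In H3K9M intestine 0 members were called higher and 0 lower (0.211% of all genes, 0.147% higher and 0.0632% lower), before adjustment edgeR had 3 lower and 1 higher at p under 0.05, and DESeq2 and limma-voom also called none. The median log2 fold change was -0.59 against -0.01 over all genes, and 35 of 39 were below 0. Without WT.1476, the intestine library with the raised spermatid sum, the median was -0.05. Mcm10 had the smallest p, at 22.8 and 25.8 CPM in WT and 15.1 and 13.7 in H3K9M (-0.75 ± 0.17, adjusted p = 0.205). Rfc3 was at 9.80 and 10.99 against 6.73 and 5.83 CPM, Pcna at 53.0 and 56.2 against 71.1 and 77.0, and Lig1 at 19.0 and 10.2 against 5.70 and 5.26 (adjusted p = 0.403 for Lig1). In all 4 the H3K9M mice lay on 1 side of the WT mice, but these genes were named for their smallest p. Their separation is therefore no further evidence of a difference. Among all members, both H3K9M mice lay above both WT mice for 2 and below them for 16, and the genotypes overlapped for 22. How many of all genes separated in this way was not counted, so these numbers have no background and do not mark the members. The mitosis genes had a median of -1.44 with 0 calls. Goblet sums were 10619 and 12691.5 CPM in WT and 4962 and 5523 in H3K9M, with 0 calls and 7 of 8 genes lower at p under 0.05 before adjustment. The share of all genes at that unadjusted p is not given here, so the unadjusted counts have no background. Immune sums were 808.7 and 492.2 against 295.4 and 365.1 CPM, also with 0 calls. The part of these differences in the members' values was not tested.

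Against H3K36M, H3K9M intestine was lower for the same 5 genes that rose in H3K36M against WT and higher for none (25.1% of all genes called, 12.9% higher and 12.2% lower). The differences were -5.24 ± 0.55 for Rrm2, -2.73 ± 0.57 for Mcm2, -1.68 ± 0.17 for Mcm10, -1.24 ± 0.25 for Rpa2 and -0.93 ± 0.26 for Cdt1. Both contrasts share the H3K36M mice. Without either H3K9M mouse, fewer members and also fewer of all genes were called. Over 13 alternative settings, these included, the Rrm2 difference lay between -5.60 and -4.75.

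In the testes of H3K36M mice 13 members fell and 5 rose. The called share of 45% is near the 49.5% of 19160 genes called (25.7% higher, 23.8% lower), and the median log2 fold change of the members was -0.20 against 0.02 over all genes. Falls were found in the helicase (4 of 12), priming and synthesis (4 of 9), licensing (2 of 5), clamp (2 of 6) and nucleotide supply (1 of 4) groups. Of the H3K36M pair, H3K36M.1553 had the lower value for all 13 genes that fell. The count rests on few mice. Without any 1 of the WT or H3K9M mice fewer members and also fewer of all genes were called, and without H3K36M.1485 more of both. The members' median was -0.245 without WT.1476, -0.24 without WT.1477 and -0.52 without H3K36M.1485. Over all genes the medians of these 3 fits were 0.03, 0.03 and -0.03. Fitted without the H3K9M group, 10 members were called, and 6770 of 18489 genes. Scaling by library size alone, which moves the median of all genes to -0.12, gave 3 rises and 15 falls.

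Rpa1, the large subunit of the single-strand binding protein, showed the largest fall in testes, with WT mice at 220.0 and 220.4 CPM and H3K36M mice at 95.6 (H3K36M.1485) and 34.0 (H3K36M.1553), a log2 fold change of -1.76 ± 0.44 and an adjusted p of 0.0181. Pola2, which anchors polymerase alpha to primase, fell from 29.6 and 29.3 to 15.8 and 10.4 CPM (-1.17 ± 0.20, adjusted p = 0.00563). Prim2 and Pold1 fell by 0.74 ± 0.19 and 0.79 ± 0.23 on the log2 scale. Pola1, in contrast, rose from 3.48 and 4.31 to 6.42 and 5.79 CPM (0.64 ± 0.21, adjusted p = 0.0403), so the 2 polymerase alpha subunits were called in opposite directions. The call for Pola1 was kept in 4 of 13 alternative settings.

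Within the helicase group of testes, Gins1 fell from 19.5 and 20.8 CPM to 10.4 and 3.14 (log2 -1.57 ± 0.45, adjusted p = 0.0297) and Gins2 from 9.90 and 10.5 to 5.94 and 2.22 (-1.32 ± 0.38), while Gins3 and Gins4 were not called. Gins2 shares 67.3% of its exon bases with a gene on the opposite strand. Cdc45 fell from 32.2 and 33.2 to 23.8 and 16.8 CPM (-0.69 ± 0.18) and Mcm5 from 20.8 and 20.8 to 15.8 and 11.3 (-0.62 ± 0.18, adjusted p = 0.0266). Mcm2 rose from 9.48 and 10.2 to 16.2 and 15.3 CPM (0.68 ± 0.16, adjusted p = 0.0147). Both H3K36M mice were thus on the same side of both WT mice for each of these 5 genes, with Mcm2 on the opposite side to its ring partner Mcm5. All 5 were called on these same values, so their separation is no further evidence of a difference.

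For licensing, Cdc6 fell from 11.2 and 9.57 to 6.18 and 4.62 CPM (log2 -0.94 ± 0.19, adjusted p = 0.00936) and Orc2 by 0.67 ± 0.15 on that scale. Orc1, the ATPase subunit of the origin recognition complex, rose from 12.1 and 10.8 to 15.5 and 16.1 CPM (0.47 ± 0.14, adjusted p = 0.0324), a call kept in 5 of 13 alternative settings. Of the clamp group, Pcna fell from 81.4 and 83.2 to 46.8 and 28.1 CPM (-1.13 ± 0.23, adjusted p = 0.00887) and Rfc1, the largest clamp loader subunit, from 164 and 165 to 102 and 65.2 (-0.98 ± 0.21). Reads that align both to Pcna and to its pseudogenes Pcna-ps1 and Pcna-ps2 may have been set aside as not unique, so its level carries that uncertainty. Rfc2 was at 179 and 182 CPM in WT and 180 and 221 in H3K36M, with no call.

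Fen1 rose in testes from 2.82 and 2.44 to 4.80 and 7.34 CPM (log2 1.21 ± 0.33), with the same doubt about overlapping genes as above. Among nucleotide supply genes Tk1, the salvage enzyme for thymidine, showed the largest rise, from 2.94 and 2.81 to 6.96 and 9.62 CPM (1.52 ± 0.26, adjusted p = 0.00541). Rrm2 fell from 16.9 and 16.3 to 10.7 and 7.77 CPM (-0.84 ± 0.19, adjusted p = 0.0135). Rrm1 was at 115 and 113 CPM in WT and at 84.6 and 23.6 in H3K36M, which were not called (-1.07 ± 0.53). Tyms was at 2.101 and 2.91 against 3.598 and 3.70 CPM (adjusted p = 0.103) and Chaf1b at 13.3 and 13.9 against 18.1 and 16.5 (adjusted p = 0.0944).

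**Figure D4:**
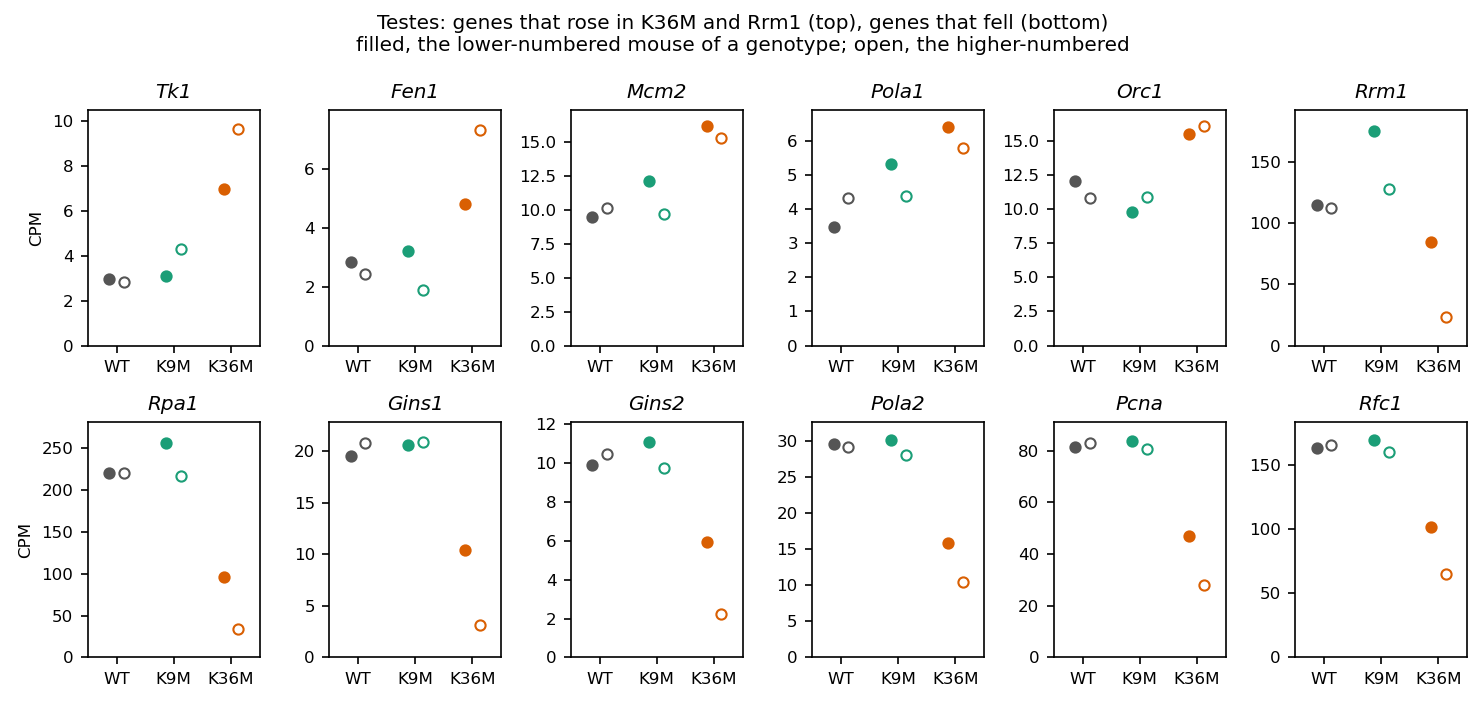
CPM in each testes library for the 5 genes that rose in H3K36M and for Rrm1 (top), and for the 6 genes with the largest falls (bottom), with filled points for the lower-numbered mouse. In the bottom row the H3K36M points lie below the WT points, and the open one (H3K36M.1553) is the lower of the pair, as for Rpa1 at 34.0 against 95.6.

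Mitosis genes fell in the same testes libraries, 18 of 24 with 0 rises (median log2 fold change -1.34), among them Tpx2 (61.5 to 35.3 CPM on average) and Kif11 (67.6 to 17.1). Their sums were 2166 and 2149 CPM in WT and 1195 (H3K36M.1485) and 481.1 (H3K36M.1553) in H3K36M, against member sums of 1584 and 1590 and of 1246 and 977.1. Of 46 other replication genes 5 rose and 17 fell, with Mtbp from 49.6 to 18.01 CPM and the helicase binding protein gene Mcmbp from 22.3 to 41.8. G1/S regulators gave 7 rises and 6 falls of 25, Tfdp1 (44.3 to 22.1 CPM) and E2f8 (16.9 to 4.69) having the smallest p. Germ cell markers differed as well: 8 of 11 spermatocyte genes fell and 1 rose (sums 5876 to 5923 CPM in WT and 4942 to 5022 in H3K36M), and 8 of 10 spermatid genes rose (15906 to 16078 and 33907.5 to 48609.7). All 7 Sertoli genes rose (961.4 to 994.1 and 2457 to 3338 CPM), 6 of 7 Leydig genes fell (443.7 to 537.4 and 49.6 to 77.4), and of 10 spermatogonia genes 4 rose and 2 fell (511.0 to 513.0 and 316.3 to 417.1). H3K36M.1553, the mouse with the lower member sum, also had the higher spermatid and Sertoli sums. No gene of these 5 lists was at 0 in both libraries of a testes group, and their part in the replication gene values was not tested.

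H3K9M testes had no call among the members (0.0678% of all genes, 0.0261% higher and 0.0418% lower), with 0 at an unadjusted p under 0.05 in edgeR and 0 calls by DESeq2 and limma-voom. The log2 fold changes lay between -0.14 and 0.42, with a median of 0.04 against 0.01 over all genes. The smallest p belonged to Pola1 (3.48 and 4.31 CPM in WT, 5.31 and 4.39 in H3K9M), Pole (59.8 and 62.2, 72.5 and 71.3), Tk1 (2.94 and 2.81, 3.11 and 4.30) and Mcm3 (15.7 and 17.1, 20.1 and 17.3), each at an adjusted p of 0.9999. Set against H3K36M, 15 members were higher in H3K9M testes and 4 lower (49.2% of all genes called, 23.9% higher and 25.4% lower). Rpa1 (log2 1.87 ± 0.44), Gins1 (1.60 ± 0.45), Gins2 (1.35 ± 0.38) and Pola2 (1.15 ± 0.20) were higher, and Fen1 (-1.25 ± 0.32), Tk1 (-1.16 ± 0.25), Orc1 (-0.61 ± 0.14) and Mcm2 (-0.53 ± 0.16) lower. These counts rest on few mice. Without any 1 of the H3K9M or WT mice fewer members and also fewer of all genes were called, and without H3K36M.1485 more of both. The members' median log2 difference was 0.38 with all mice. It was 0.22 without H3K9M.1516, 0.43 without H3K9M.1519 and 0.56 without H3K36M.1485.

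Across the 3 tissues, Mcm2 was the only member called higher in H3K36M in each, by log2 0.30 ± 0.05 in BSPC, 2.48 ± 0.56 in intestine and 0.68 ± 0.16 in testes. Rrm2 was called in each tissue but rose in BSPC and intestine and fell in testes. Cdc6, Orc2, Pola2, Prim2 and Rpa1 rose in BSPC and fell in testes, and Tk1 did the reverse. Tested as a difference between the tissues, with all libraries in 1 fit, the effect in BSPC exceeded that in testes for 7 members and was below it for 1 (24.8% of all genes called, 12.7% larger and 12.1% smaller), among them Cdc6 by 1.38 ± 0.25, Pola2 by 1.47 ± 0.27, Rpa1 by 1.99 ± 0.48 and Tk1 by -1.70 ± 0.57 on the log2 scale. The Tk1 difference was called in 4 of 13 alternative settings. The differences for Prim2 and Rrm2 between BSPC and testes were not called. Between intestine and testes 9 effects differed (8 larger in intestine and 1 smaller; 26% of all genes, 11.1% larger and 14.9% smaller), and between BSPC and intestine 5 did (2 larger in BSPC and 3 smaller; 17.2% of all genes, 9.81% larger and 7.44% smaller). For 9 members there was no call in any tissue, namely Gins4, Mcm3, Mcm4, Mcm6, Mcm7, Pole2, Prim1, Rfc2 and Tyms. In H3K36M against WT 48% of all genes were called in BSPC, 23.3% in intestine and 49.5% in testes. How many of all genes show each of these patterns across tissues was not counted, so the patterns have no background and do not mark the members.

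**Figure D5:**
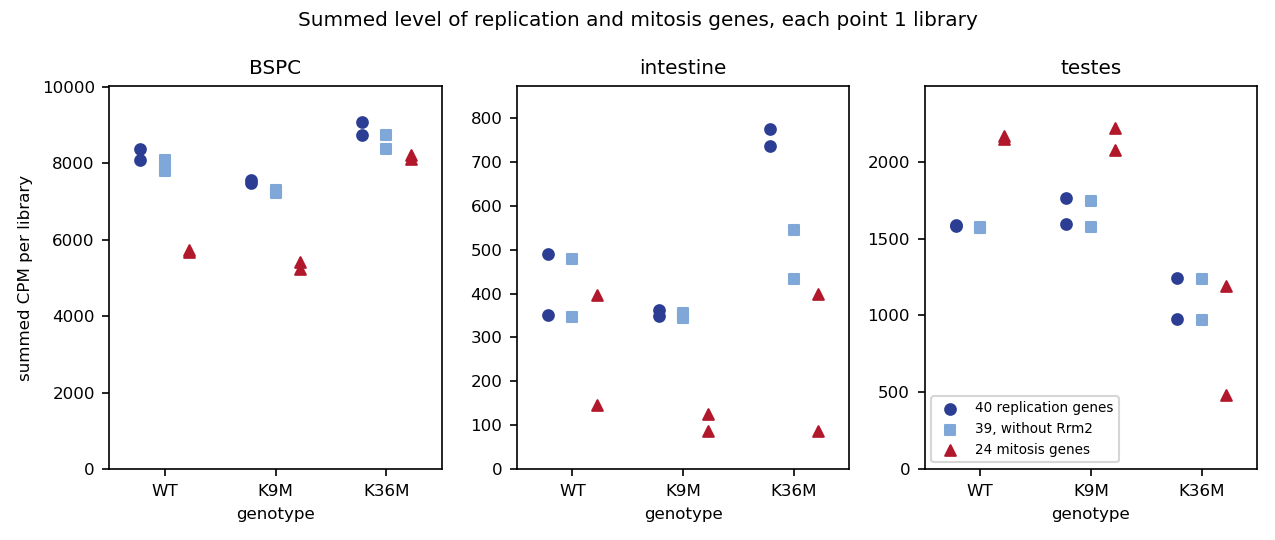
Summed CPM of the 40 members, of 39 members without Rrm2 and of 24 mitosis genes in each library, by tissue and genotype, on the scaling of that tissue. Mitosis sums go from 5673 and 5719 in WT to 8104 and 8207 in H3K36M BSPC and from 2166 and 2149 to 1195 and 481.1 in testes, while in intestine the 2 H3K36M mice lie apart (86.9 and 398.4).

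Motif letters were also counted by call, as a description with no test. E2F letters stood in 5 of the 12 members with a RefSeq promoter that rose in BSPC, in 3 of 4 that fell and in 13 of 17 without a call. In testes they stood in 3 of 5 that rose, 4 of 10 that fell and 14 of 18 without a call.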

How the data were processed

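RNA was measured in 18 libraries of 9 groups of 2 mice. Per the labels, polyadenylated RNA was made into libraries with a SMARTer v3 kit, and per the submitters' processing notes the authors aligned reads with STAR and counted them per gene with HTSeq on mm9. Versions, annotation and strand use are not given in the sources used here. The deposited values are raw counts. Entries that name no gene were left out of library sizes. Reads without a feature made up 9.89 to 26.0% of a library's total of gene counts and such entries together.

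Counts were tested with edgeR 4.0.16 (R 4.3.3; TMM, filterByExpr, robust quasi-likelihood), with 3 group means per tissue and 3 residual degrees of freedom, or 9 groups and 9 residual degrees of freedom for tissue contrasts. Benjamini-Hochberg adjustment ran over all genes tested, with a threshold of 0.05, and the fits were tested on simulated data. Alternatives used DESeq2 1.42.0, limma 3.58.1 and other scalings and filters. Leaving out 1 library leaves a lone library that is assumed to vary like the other groups. CPM per kb used exon lengths of GRCm38. Promoter sequences are from RefSeq.

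The members and lists were chosen with earlier results of these data known. Named were, against WT, up to 6 called rises and 6 falls by size, or the 4 smallest p where none was called, with 8 anchor genes (Mcm5, Cdc6, Cdc45, Pcna, Pola1, Rrm2, Tyms, Chaf1b), up to 4 each way in other comparisons, and 2 genes per other list by adjusted p. Intestine and testes come from the same 6 mice, named in the titles, so they are paired. Deviations of a mouse's 2 tissues from their group means correlated across genes at 0.0521 in WT, 0.121 in H3K9M and -0.0632 in H3K36M. A gene that this rule names is not reported here.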

Additional observations from a re-analysis of the deposited data

Results flagged for a closer look

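These results were marked because the effect of H3K36M against WT differed between tissues by an interaction term in edgeR's quasi-likelihood test over all 18 libraries. Between intestine and testes 9 members differed, with larger log2 effects in intestine for Rrm2 (5.82 ± 0.57, adjusted p = 2.61e-05), Cdc45 (1.82 ± 0.40), Rpa1 (1.77 ± 0.50) and Gins3 (1.70 ± 0.47) and a smaller one for Tk1 (-2.24 ± 0.60). Between BSPC and intestine 5 differed, with larger effects in BSPC for Cdc6 (1.04 ± 0.27) and Pola2 (0.97 ± 0.27) and smaller ones for Rrm2 (-4.60 ± 0.54), Mcm2 (-1.99 ± 0.58) and Gins3 (-1.78 ± 0.44). Between BSPC and testes 8 differed, with larger effects in BSPC for Rpa1 (1.99 ± 0.48), Gins1 (1.60 ± 0.49), Pola2 (1.47 ± 0.27) and Cdc6 (1.38 ± 0.25) and a smaller one for Tk1 (-1.70 ± 0.57), a call kept in 4 of 13 alternative settings. The differences of Mcm2 and Pola2 between BSPC and intestine were kept in 6 and 7 of 13, and that of Gins1 between BSPC and testes in 7 of 13. In the fits below, which leave out 1 library, calls over all genes moved as well, though not always by a like share. The members' median log2 difference between BSPC and intestine was 0.23 with all libraries. It was 0.70 without the intestine library of H3K36M.1553 and -0.22 without that of H3K36M.1485. Over all genes the medians of these 3 fits were 0.12, 0.15 and 0.19. Without the testes library of WT.1477 the first count was 4, and without the intestine library of H3K36M.1553 the second was 13. The second was 8 without the intestine library of WT.1477, 3 without the BSPC library of WT.1266, and 2 without the BSPC library of WT.1262 or H3K36M.1312 or the intestine library of H3K36M.1485. The third was 5 without either BSPC library of WT or of H3K36M, or without the testes library of WT.1476.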

How the results depend on the processing

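Of 911 values recomputed for 74 named calls, 750 kept direction and call, 161 lost the call and 0 reversed. Without a filter on low counts 3 members were called for H3K9M against WT in BSPC, where 463 of 23690 genes were called. In intestine, of 24939 genes tested, the count was 4 for H3K9M against WT (1180 genes in all). It was 8 for H3K36M against WT (4834 genes) and 15 for H3K9M against H3K36M (5010 genes). With the filter, calls over all genes were 147 of 14604 in BSPC, and 30, 3323 and 3570 of 14246 in intestine. DESeq2 gave 3 for H3K9M against WT in BSPC (352 of 14604 genes) and 9 for the mutants compared in intestine (4214 of 14246). For the H3K36M effect between BSPC and intestine DESeq2 gave 9 (4612 of 21257 genes). For that effect DESeq2's size factors in edgeR gave 8 (3646 genes) and limma-voom with group quality weights 3 (2710 genes). The same limma-voom fit gave 15 for that effect between BSPC and testes (6734 genes) and 4 between intestine and testes (2764 genes). In testes the 2 groups alone gave 10 for H3K36M against WT (6770 of 18489 genes) and 12 for the mutants compared (6786 of 18686). With the mouse as a replicate block, 25 members were called between WT intestine and testes (17088 of 21257 genes), against 26 without it (17296 genes). For the H3K36M effect between these tissues the block gave 11 members (5221 genes), against 9 without it (5532 genes). Leaving out 1 library gave 9 to 17 (H3K36M), 0 to 3 (H3K9M) and 13 to 22 (mutants compared) in BSPC, 1 to 9, 0 and 2 to 7 in intestine, and 2 to 31, 0 and 0 to 29 in testes. For WT tissues the ranges were 25 to 29 (intestine and testes), 40 (BSPC and intestine) and 29 to 32 (BSPC and testes), and for the H3K36M effect 4 to 13, 2 to 13 and 5 to 11. Calls over all genes also moved when 1 library was left out, so these ranges do not describe the members alone. Counts as low as 1 in intestine limit the rare members there.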
